A study of Mus musculus with 36 samples.

Results

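The genes described here are the class I histone deacetylases (HDACs) and the corepressor subunits that carry them: Hdac1, Hdac2, Hdac3, Hdac8, Rcor1, Sin3a, Ncor1, Mta2 and Rbbp4. They were chosen as the targets of the HDAC inhibitors given to the mice and as core members of the complexes in which these targets work, and every array probe whose gene symbol was one of the 9 names was taken. Of 45281 probes on the array, 16 carried such a symbol and covered 8 of the 9 genes, out of 30869 gene symbols on the array. No probe used here carries the symbol Hdac1, so Hdac1 was not analysed here. The study treated mice with 3 HDAC inhibitors or vehicle and measured RNA in 3 brain regions linked to mood, to ask which transcripts chronic HDAC inhibition alters and whether compounds of different structure and selectivity act alike.

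All mice were male C57BL/6 (C57BL/6J by the sample labels) and 11 weeks of age. They received 10 daily intraperitoneal injections, with tissue taken 1 h after the last. The treatments were vehicle (saline, PEG-400 and DMSO), Cpd-60 at 45 mg/kg, SAHA at 25 mg/kg and CI-994 at 10 mg/kg, and SAHA and CI-994 were given in a smaller injection volume than vehicle and Cpd-60. Cpd-60 and CI-994 are benzamides and SAHA is a hydroxamic acid. From each treatment RNA of 6 mice was pooled by pairs, giving 3 pools of 2 mice, and each pool gave 1 array from medial prefrontal cortex (PFC), 1 from nucleus accumbens (NAc) and 1 from hippocampus (HIP), 36 arrays in all. The 12 arrays of a region lay on 2 BeadChips of 6 arrays that held no other region, so region and BeadChip cannot be told apart. Every treatment was on both BeadChips of a region but not evenly, since vehicle and Cpd-60 each had 2 arrays on the first and 1 on the second, and SAHA and CI-994 each had 1 on the first and 2 on the second. SAHA and CI-994 against vehicle are therefore partly confounded with the BeadChip, and Cpd-60 against vehicle is not. The 3 inhibitors were compared with the same 3 vehicle arrays of a region, and their doses differed, so that their values are given side by side and no inhibitor was tested against another. The tissue was whole dissected region, in which fewer cells of a type and less RNA per cell cannot be told apart.

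Class I HDACs remove acetyl groups from histone tails and in most settings lower transcription at the sites to which they are brought. Hdac1 and Hdac2 are close paralogs that work as a pair in the NuRD, CoREST and Sin3 complexes, whereas Hdac3 works in the NCoR and SMRT complexes and Hdac8 largely outside these assemblies. In brain, Hdac2 is known as a brake on synaptic genes and memory formation, and Rcor1, Sin3a, Mta2 and Ncor1 are scaffolds that tie the enzymes to transcription factors, with Rbbp4 as the histone-binding subunit shared by NuRD and Sin3.

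The promoters of 3 genes are shown first. The transcript of Hdac2 differed most between regions, and those of Rbbp4 and Sin3a showed the lowest p-values under an inhibitor. The promoters of Ncor1, which also differed between regions, are not shown. Each sequence is the 250 bases upstream of the annotated RefSeq start in mouse build GRCm38.p6, 5′ to 3′ on the strand of the gene. Hdac2 lies at chr10:36974294-36974543 on the plus strand, Rbbp4 at chr4:129335371-129335620 on the minus strand, and Sin3a has 2 annotated promoters on the plus strand, at chr9:57071790-57072039 (A) and chr9:57076126-57076375 (B). Capitals mark every match, on either strand, to the GC box GGGCGG, to CCAAT and to the E-box CACGTG.
Hdac2: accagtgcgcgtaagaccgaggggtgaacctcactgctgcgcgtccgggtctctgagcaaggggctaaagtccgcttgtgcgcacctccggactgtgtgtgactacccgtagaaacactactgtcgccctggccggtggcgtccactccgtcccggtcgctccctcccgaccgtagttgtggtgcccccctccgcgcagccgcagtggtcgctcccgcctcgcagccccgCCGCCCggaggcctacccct
Rbbp4: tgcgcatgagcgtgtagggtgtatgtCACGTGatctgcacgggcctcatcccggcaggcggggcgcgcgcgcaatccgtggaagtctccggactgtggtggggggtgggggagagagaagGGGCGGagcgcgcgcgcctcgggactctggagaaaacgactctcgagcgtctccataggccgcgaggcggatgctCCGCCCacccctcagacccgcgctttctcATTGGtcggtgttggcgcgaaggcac
Sin3a A: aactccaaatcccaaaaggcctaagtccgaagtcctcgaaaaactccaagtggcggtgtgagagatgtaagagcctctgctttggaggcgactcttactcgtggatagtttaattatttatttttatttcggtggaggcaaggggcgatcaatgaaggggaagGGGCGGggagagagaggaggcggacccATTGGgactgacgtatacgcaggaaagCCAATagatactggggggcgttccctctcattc
Sin3a B: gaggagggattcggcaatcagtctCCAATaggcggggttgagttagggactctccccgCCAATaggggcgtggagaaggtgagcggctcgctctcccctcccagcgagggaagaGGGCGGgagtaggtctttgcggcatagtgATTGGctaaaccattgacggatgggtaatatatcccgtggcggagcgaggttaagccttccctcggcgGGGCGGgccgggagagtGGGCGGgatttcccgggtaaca
The Hdac2 promoter held 1 GC box and no CCAAT or E-box, and that of Rbbp4 held 2 GC boxes, 1 CCAAT and 1 E-box. The Sin3a promoters held 1 and 3 GC boxes and 2 and 3 CCAAT matches. Among 32851 RefSeq promoter windows of the same length, 32.7% held a GC box, 33.8% CCAAT and 6.02% the E-box.

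Signal differed widely in quality between the probes of a gene. Values are log2 of quantile-normalized intensity, and each gene is represented by its brightest probe, since levels of different probes cannot be compared. Testing required a detection p-value of at most 0.2 on each of the 3 arrays in 1 or more groups. Of the 16 probes, 14 were tested in at least 1 region, 13 in all 3 regions and 2 in none (1 of Hdac3 and 1 of Rbbp4). Only 8 had a detection p-value of at most 0.01 on all 36 arrays, among them the representative probes of every gene except Rbbp4, whose brightest probe reached it on 35 arrays. Over the 36 arrays, 31.9% to 43.3% of all probes reached that level, and the 3 SAHA arrays of the HIP lay at 32.1% to 34.3% against 38.0% to 39.7% for vehicle. The representative probes of Hdac8, Rcor1 and Rbbp4 were dim, averaging 6.92, 7.07 and 7.11 over the 36 arrays. Each of the 2 probes tested in no region averaged 6.53, a mark of background. No background was subtracted, so flat values of Hdac8, Rcor1 and Rbbp4 do not show that their RNA was equal. Region markers followed the labels in the vehicle arrays: 7 striatal genes averaged 10.47 in the NAc against 7.47 in the PFC and 7.17 in the HIP, 5 cortical genes 8.48, 7.03 and 7.72 (PFC, NAc and HIP), and 4 hippocampal genes 8.41 in the HIP against 6.82 in the PFC and 6.92 in the NAc.

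Without drug, Hdac2 and Ncor1 differed between regions in opposite directions. Hdac2 was higher in the HIP and NAc than in the PFC, and Ncor1 was lower in the HIP than in the PFC. Of the 8 genes, 1 was higher and 1 lower in the HIP than in the PFC at an adjusted p under 0.05 (limma with Benjamini-Hochberg adjustment over 22606 probes), where 27.3% of all probes tested passed (13.4% higher and 13.9% lower). In the NAc against the PFC 1 of 8 was higher and none lower, against 20.8% of all probes (9.59% higher and 11.2% lower). In the HIP against the NAc none of 8 passed by limma, against 17.9% of all probes, and 3 of 8 had an unadjusted p under 0.05, against 30.7% of all probes. The groups did not overlap for 6, 3 and 3 of the 8 genes in these comparisons, against 46.1%, 36.6% and 34.6% of all probes. The share of these genes that passed adjustment was near or below that of the array as a whole, and the share without overlap was above it in the HIP against the PFC and close to it in the other comparisons.

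Hdac2, a deacetylase that all 3 inhibitors target, read 8.26, 8.33 and 9.02 in the 3 vehicle arrays of the PFC. The NAc arrays read 9.55, 9.56 and 9.97, and those of the HIP 9.91, 9.99 and 10.08. Every PFC array lay below every array of the other regions, and the HIP and NAc arrays overlapped. The difference was 1.45 on the log2 scale between HIP and PFC (SE 0.19, n = 3 pools, 95% interval 1.04 to 1.87, adjusted p = 0.00056 by limma), or 2.74-fold, and 1.15 between NAc and PFC (SE 0.19, adjusted p = 0.00175 by limma), or 2.22-fold. Between HIP and NAc it was 0.30 (95% interval -0.12 to 0.71, adjusted p = 0.311 by limma). Pool 3, alone among the vehicle pools on the second BeadChip of each region, was the highest in each region. Between arrays of the first BeadChips the HIP exceeded the PFC by 1.65, and between those of the second by 1.06. Without vehicle pool 2 the difference between NAc and PFC was 1.12 with an adjusted p of 0.0655, without vehicle pool 3 that between HIP and NAc was 0.39 with an adjusted p of 0.00116, and the other fits that left out a vehicle pool changed no call for Hdac2. When arrays were only centred on their median, NAc minus PFC was 1.13 with an adjusted p of 0.0598 by limma, past the threshold no longer, and HIP minus PFC was 1.70 (adjusted p = 0.0132 by limma). The mean of 6 oligodendrocyte markers followed the same order, from 10.01 (PFC) through 10.91 (NAc) to 11.60 (HIP), and its part in the difference was not tested.

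The other Hdac2 probe was near background, with a detection p-value of at most 0.01 on 17 of 36 arrays, and did not show the difference. It averaged 6.76, 6.78 and 6.71 over PFC, NAc and HIP arrays, and HIP minus PFC was -0.05 (95% interval -0.21 to 0.11). The region difference of Hdac2 therefore rests on 1 probe.

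Ncor1, the scaffold that holds Hdac3, ran the other way. It read 9.64, 9.35 and 9.17 (PFC), 8.96, 9 and 8.96 (NAc) and 8.40, 8.44 and 8.95 (HIP). The PFC arrays lay above all NAc arrays and these above all HIP arrays, although HIP pool 3 nearly reached the NAc arrays. HIP minus PFC was -0.79 (SE 0.15, 95% interval -1.12 to -0.45, adjusted p = 0.00423 by limma), a 0.58-fold level. NAc minus PFC was -0.41 (adjusted p = 0.0821 by limma) and HIP minus NAc was -0.38 (adjusted p = 0.12 by limma), both past the unadjusted threshold alone. Without vehicle pool 3 these were -0.51 and -0.56, and both passed adjustment by limma (adjusted p = 0.000716 and 0.000283). The gap depended on the pools kept, and HIP minus PFC was -1.07 without vehicle pool 3, -0.72 without pool 2 (adjusted p = 0.118 by limma) and -0.56 without pool 1 (adjusted p = 0.0894 by limma). After median centring alone it was -0.55 and did not pass adjustment (adjusted p = 0.157 by limma). Between arrays of the first BeadChips the difference was -1.07, and between those of the second it was -0.22. The dimmer Ncor1 probe averaged 6.79, 6.65 and 6.67 in the PFC, NAc and HIP.

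Among the enzymes, Hdac3 read 8.85, 8.85 and 9.13 (PFC), 9.20, 9.26 and 9.16 (NAc) and 9.12, 9.13 and 9.30 (HIP). The first 2 pools of the PFC were the lowest, and pool 3 of the PFC overlapped the HIP. NAc minus PFC was 0.26 (95% interval 0.06 to 0.46, adjusted p = 0.0638 by limma) and HIP minus PFC was 0.24 (95% interval 0.04 to 0.43, adjusted p = 0.0722 by limma). Without vehicle pool 3 both passed adjustment by limma (0.38 with an adjusted p of 0.0016, and 0.27 with an adjusted p of 0.0115). Hdac8, the class I enzyme that acts largely on its own, averaged 6.85, 6.93 and 6.97 over PFC, NAc and HIP arrays, and no pair of regions passed either threshold.

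Sin3a, the scaffold of the Sin3 complex, read 8.66, 8.47 and 8.14 (NAc) and 8.30, 8.45 and 8.28 (PFC). In the HIP it read 8.14, 7.91 and 8.07, below every array of the other regions by a margin that for the NAc was lost on rounding. HIP minus NAc was -0.38 (SE 0.12, adjusted p = 0.0529 by limma) and HIP minus PFC was -0.30 (adjusted p = 0.0905 by limma). Without vehicle pool 3 these differences were -0.54 (adjusted p = 0.000539 by limma) and -0.35 (adjusted p = 0.0112 by limma).

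Rbbp4, the histone-binding subunit, had 3 tested probes that differed in how far the HIP stood apart. The brightest averaged 7.00, 6.96 and 7.16 in the PFC, NAc and HIP, with HIP minus NAc at 0.19 (adjusted p = 0.121 by limma). The second probe averaged 6.77, 6.88 and 7.17, and was higher in the HIP than in the PFC by 0.39 (adjusted p = 0.00547 by limma) and than in the NAc by 0.29 (adjusted p = 0.0301 by limma). The third averaged 6.90, 6.90 and 7.19, with the HIP higher by 0.29 and 0.28 (adjusted p = 0.0292 and 0.0442 by limma). All 3 probes placed the HIP highest, but the calls of both dimmer probes were each lost without vehicle pool 1 and without vehicle pool 2. With the pool as a block the third probe kept the size but not the call (adjusted p = 0.0565 against the PFC and 0.0817 against the NAc by limma).

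Mta2, a scaffold of NuRD, averaged 7.34, 7.54 and 7.52 over PFC, NAc and HIP arrays. Rcor1, the scaffold of CoREST, averaged 7.14, 7.07 and 7.07. No pair of regions passed the unadjusted threshold for either gene. The 95% interval for HIP minus PFC was -0.06 to 0.43 for Mta2 and -0.31 to 0.16 for Rcor1.

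**Figure D1:**
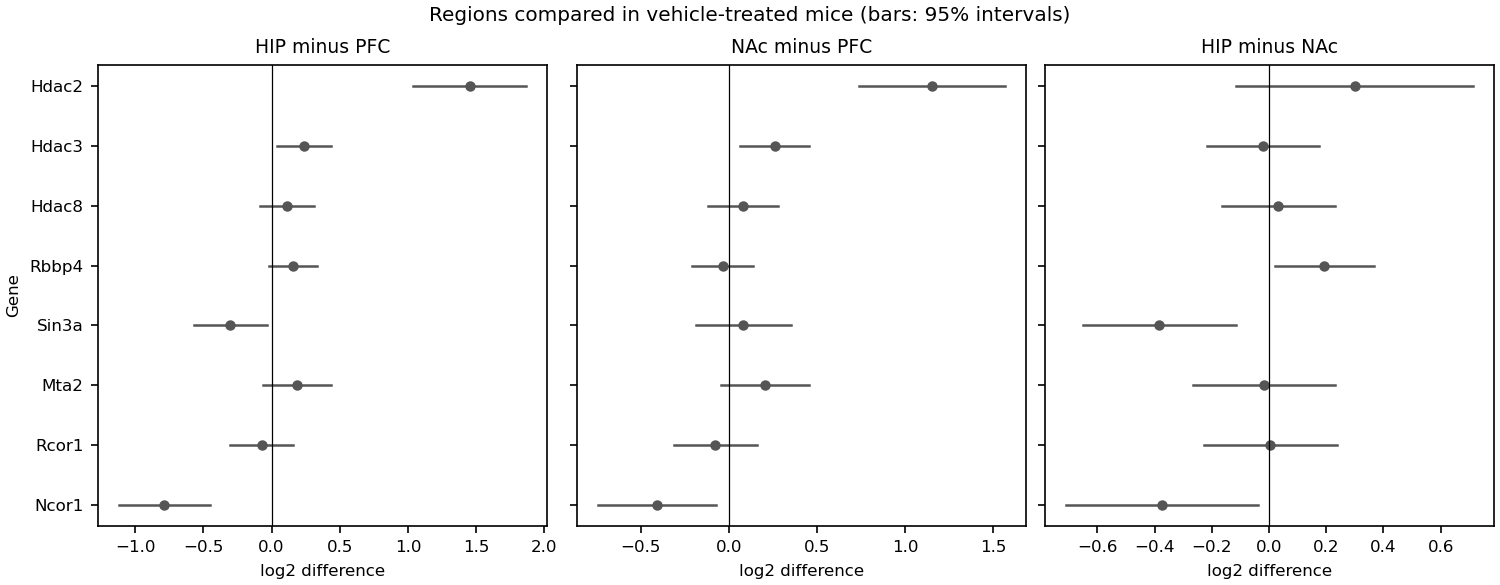
Difference in log2 normalized intensity between regions in the vehicle arrays (x axis) for each gene (y axis), with 3 pools per region; points are means of the differences and bars 95% intervals from limma. Hdac2 lies at 1.45 and 1.15 above the PFC in the HIP and NAc, and Ncor1 at -0.79 in the HIP.

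None of the 8 genes responded to an inhibitor in a way that passed adjustment, and the changes were small on this scale, from which no background was subtracted. Under Cpd-60 the genes farthest below and above the median of all probes stood at -0.20 and 0.19 in the PFC. In the HIP these were -0.22 and 0.25. With background correction (neqc normalization) they were -0.27 and 0.42 in the PFC and -0.33 and 0.48 in the HIP. Sizes and fold values given below therefore depend on the normalization. Each inhibitor gave 24 pairs of a gene and a region. At an unadjusted p under 0.05 by limma, 3 of 24 pairs passed under Cpd-60, 1 under SAHA and none under CI-994, against 5.07%, 4.60% and 3.06% of all probe and region pairs tested. By region (PFC, NAc and HIP) the share of all probes was 5.19%, 4.77% and 5.26% under Cpd-60, 2.25%, 2.05% and 9.37% under SAHA and 3.98%, 1.99% and 3.24% under CI-994. After adjustment by limma none of 24 passed under any inhibitor. The median size of change, regardless of sign, was 0.07, 0.07 and 0.05 on the log2 scale over the 24 pairs for Cpd-60, SAHA and CI-994, against 0.06 for each inhibitor over all probes. The share was above that of the array under Cpd-60, where the 3 pairs were Rbbp4 in the PFC and HIP and Sin3a in the PFC, and below it under SAHA and CI-994. The 24 pairs are not independent, since the regions of a pool came from the same mice and Rbbp4 gave 2 of the 3 Cpd-60 pairs. Leaving out 1 pool gave 1 to 5 pairs under Cpd-60. Groups did not overlap for 4, 2 and 1 of the 24 pairs, against 10.4%, 11.7% and 9.27% of all probe and region pairs.

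**Figure D2:**
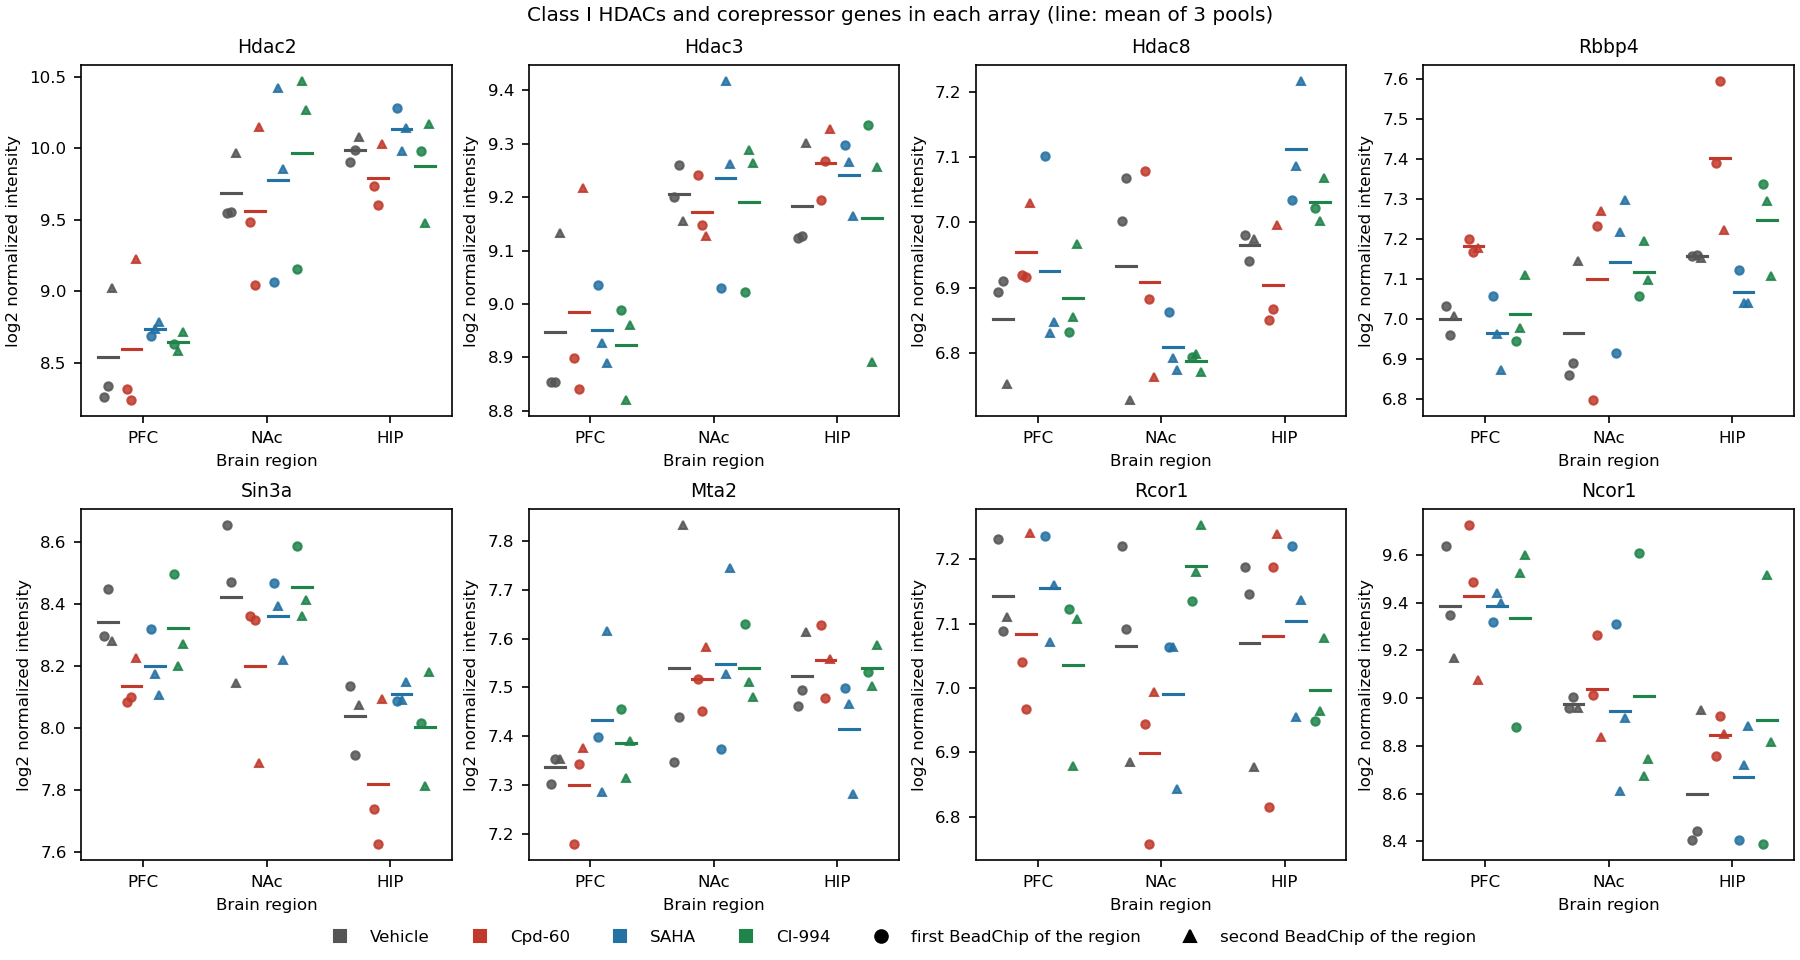
log2 normalized intensity (y axis) of the brightest probe of each gene by region (x axis); each point is 1 array, colours are treatments, shapes the 2 BeadChips of a region and lines the mean of 3 pools. Hdac2 in the NAc spans 9.05 to 10.47 and Rbbp4 under Cpd-60 lies above vehicle in the PFC and HIP.

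No change of an enzyme passed the unadjusted threshold, with the exception of Hdac8 under SAHA in the HIP. Hdac2 in the PFC read 8.32, 8.24 and 9.22 under Cpd-60, 8.69, 8.73 and 8.78 under SAHA and 8.63, 8.58 and 8.72 under CI-994, and overlapped vehicle in each case. Its change was 0.05 (95% interval -0.45 to 0.55) under Cpd-60, 0.20 (95% interval -0.30 to 0.70) under SAHA and 0.10 (95% interval -0.40 to 0.60) under CI-994. In the HIP the changes were -0.20, 0.15 and -0.11 in the same order. The 95% intervals there ran from -0.54 to 0.15, from -0.20 to 0.49 and from -0.46 to 0.23.

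The NAc was the least informative region for Hdac2. Cpd-60 gave 9.49, 9.05 and 10.15, SAHA 9.07, 10.42 and 9.86, and CI-994 9.15, 10.47 and 10.27, so that pools of 1 group spanned over 1 log2 unit. The 95% interval of the change under Cpd-60 ran from -1.04 to 0.78. Arrays on the second BeadChip of the NAc were higher by 0.90 than those on the first within a treatment, compared with 0.44 (PFC) and 0.03 (HIP). Once the BeadChip entered the fit as a block, none of the Hdac2 changes passed the unadjusted threshold in any region.

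Hdac3 was measured more tightly than Hdac2. Its changes lay between -0.03 and 0.08 in all 9 comparisons, and none passed the unadjusted threshold. Averaged over the 3 regions of each pool, the change was 0.03 under Cpd-60 (95% interval -0.10 to 0.15), 0.03 under SAHA (95% interval -0.09 to 0.16) and -0.02 under CI-994 (95% interval -0.15 to 0.10).

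Hdac8 in the HIP read 6.98, 6.94 and 6.98 under vehicle and 7.03, 7.09 and 7.22 under SAHA. All 3 SAHA arrays lay above all vehicle arrays, by a small margin for pool 1. The change was 0.15 (SE 0.06, unadjusted p = 0.0385, adjusted p = 0.524 by limma), or 1.11-fold, in a comparison in which 9.37% of all probes passed the unadjusted threshold. The call was lost in 4 of 12 fits that left out 1 pool, namely without SAHA pool 3 (change 0.09, unadjusted p = 0.16 by limma) and without vehicle pool 1, 2 or 3 (changes of 0.13 to 0.15). It was lost as well once the fit held a BeadChip term (change 0.12, unadjusted p = 0.067 by limma). Within the first BeadChip of the HIP SAHA exceeded vehicle by 0.07 and within the second by 0.18. SAHA pools 2 and 3 also gave the dimmest HIP arrays in their upper range, and over SAHA pools 1, 2 and 3 the 95th percentile of raw intensity was 665.2, 437.7 and 452 against 839.6, 794.5 and 686.4 under vehicle. When arrays were only centred on their median, the median change of all tested probes in this comparison was -0.19, and Hdac8 stood at -0.06, which is 0.13 above that median. The part of array brightness in the Hdac8 value was not tested. CI-994 gave 7.02, 7.00 and 7.07 in the HIP, also above vehicle (change 0.06, 95% interval -0.07 to 0.20), and Cpd-60 gave 6.85, 6.87 and 7.00.

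**Figure D3:**
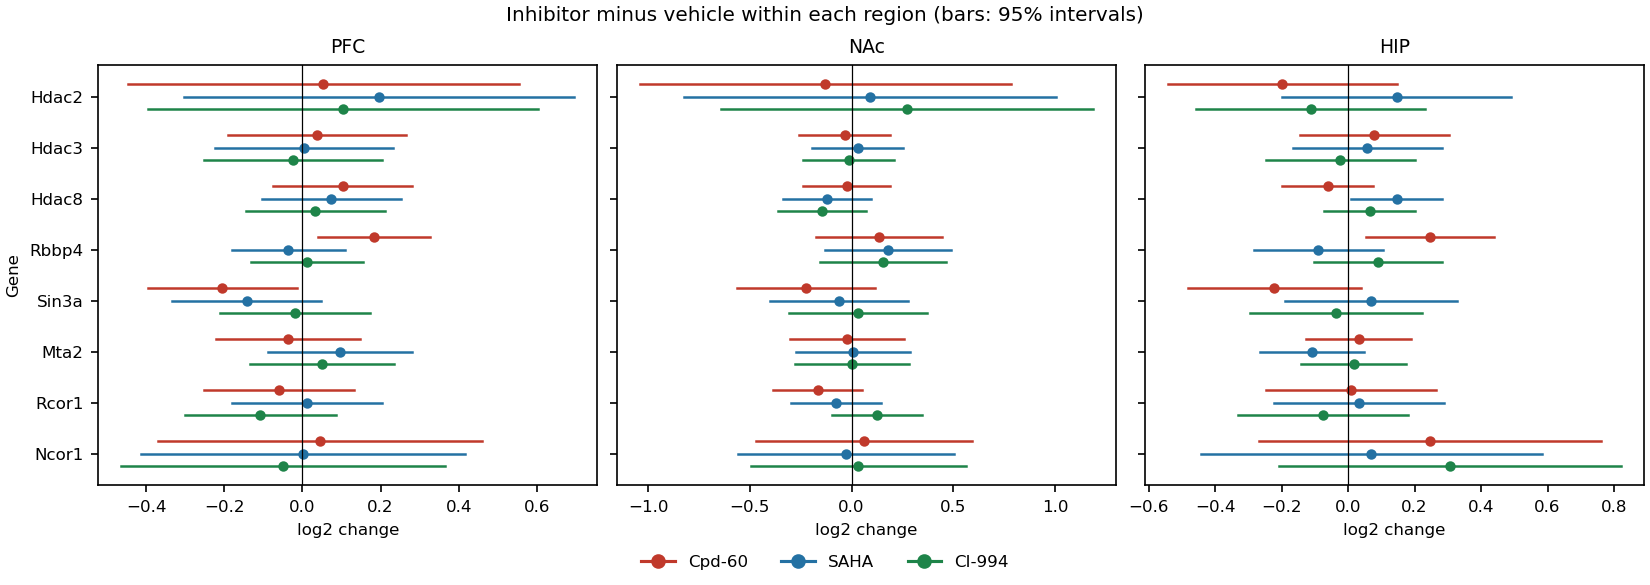
Change in log2 normalized intensity of each inhibitor against vehicle (x axis, scale set per region) for each gene (y axis) in PFC, NAc and HIP, with 3 pools per group; points are differences of means and bars 95% intervals from limma. Rbbp4 and Sin3a under Cpd-60 in the PFC, Rbbp4 under Cpd-60 in the HIP and Hdac8 under SAHA in the HIP have intervals that exclude 0 without adjustment.

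Of the corepressor genes, Rbbp4 was higher and Sin3a lower under Cpd-60 at the unadjusted threshold. Rbbp4 in the PFC read 7.03, 6.96 and 7.01 under vehicle and 7.20, 7.17 and 7.18 under Cpd-60. The Cpd-60 arrays lay above every vehicle array and above the arrays of the other inhibitors. The change was 0.18 (SE 0.07, unadjusted p = 0.0168, adjusted p = 0.923 by limma), or 1.14-fold, where 5.19% of all probes passed the unadjusted threshold. Without vehicle pool 2 it was 0.16 (unadjusted p = 0.0546 by limma). In the HIP Rbbp4 read 7.16, 7.16 and 7.15 under vehicle and 7.39, 7.59 and 7.22 under Cpd-60, a change of 0.25 (SE 0.09, unadjusted p = 0.0169, adjusted p = 0.905 by limma), where 5.26% of all probes passed. Cpd-60 pool 2 carried much of it, and without that pool the change was 0.15, with a 0.0925 unadjusted p from limma. Within the first BeadChip of the HIP it was 0.33 and within the second 0.07. In the NAc Cpd-60 gave 6.80, 7.23 and 7.27 against 6.86, 6.89 and 7.14 under vehicle, which overlapped (change 0.14, 95% interval -0.17 to 0.45). The mean of 6 astrocyte markers, all 6 detected, was also higher under Cpd-60 than under vehicle, at 9.81 against 9.67 (PFC), 9.35 against 9.07 (NAc) and 10.12 against 9.91 (HIP). The pools ran from 9.72 to 9.95 against 9.59 to 9.76 in the PFC, from 9.14 to 9.47 against 8.95 to 9.16 in the NAc and from 10.02 to 10.22 against 9.87 to 9.96 in the HIP, where they did not overlap. The mean of 5 microglial markers was 7.60 against 7.69 (PFC), 7.61 against 7.74 (NAc) and 7.68 against 7.72 (HIP), and that of 4 endothelial markers 7.72 against 7.78, 7.69 against 7.75 and 7.64 against 7.74, lower under Cpd-60 each time but with overlapping pools. Oligodendrocyte markers were also higher under Cpd-60 in the PFC, NAc and HIP (10.13 against 10.01, 10.99 against 10.91 and 11.64 against 11.60). So were choroid plexus markers (6.99 against 6.91, 7.52 against 7.17 and 8.43 against 8.42). Blood markers were lower (10.66 against 10.78, 10.11 against 10.51 and 10.20 against 10.36). Pools overlapped each time for these last sets. The part of any of these markers in the Rbbp4 and Sin3a changes was not tested.

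The second Rbbp4 probe gave larger values. In the HIP it read 7.10, 7.15 and 7.25 under vehicle and 7.46, 7.65 and 7.44 under Cpd-60, with no overlap and a change of 0.35 (SE 0.08, unadjusted p = 0.00075, adjusted p = 0.733 by limma), or 1.27-fold. In the PFC and NAc its change was 0.24 and 0.29 (unadjusted p = 0.0136 and 0.0421 by limma). Of 12 fits that left out 1 pool, the call in the PFC was lost in 2 (without vehicle pool 1 or Cpd-60 pool 3, changes of 0.17 and 0.16). In the NAc it was lost in 6, without vehicle pool 1 or 2, Cpd-60 pool 2 or 3, SAHA pool 3 or CI-994 pool 2, and fell to 0.19 without Cpd-60 pool 2 (unadjusted p = 0.173 by limma). In the HIP it was kept in all 12. Under SAHA it was higher in the HIP by 0.17 (unadjusted p = 0.0476 by limma), a call lost in 6 of 12 such fits, which turned to -0.09 when arrays were only centred on their median. The third probe did not pass in any region under any inhibitor, and its change under Cpd-60 was -0.05 (PFC), 0.24 (NAc) and 0.06 (HIP). With the BeadChip as a block the third probe passed in the NAc under Cpd-60 (unadjusted p = 0.0174, adjusted p = 0.541 by limma). With the pool number as a block, which marks different mice in each treatment, it passed in the NAc under Cpd-60 and under CI-994 (unadjusted p = 0.0179 and 0.0398 by limma). The brightest probe under SAHA was 0.04 lower in the PFC, 0.18 higher in the NAc and 0.09 lower in the HIP than vehicle, where all 3 arrays lay below vehicle, and under CI-994 it was higher by 0.01, 0.15 and 0.09. None of these passed the unadjusted threshold.

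Sin3a under Cpd-60 in the PFC read 8.08, 8.10 and 8.23 against 8.30, 8.45 and 8.28 under vehicle, with all Cpd-60 arrays below all vehicle arrays. The change was -0.21 (SE 0.09, unadjusted p = 0.0374, adjusted p = 0.938 by limma), a 0.87-fold level. The call was lost in 3 of 12 fits that left out 1 pool, without vehicle pool 2 (change -0.15, unadjusted p = 0.145 by limma), Cpd-60 pool 1 (-0.18) or Cpd-60 pool 2 (-0.19). The NAc arrays read 8.36, 8.35 and 7.89 against 8.66, 8.47 and 8.14, and those of the HIP 7.74, 7.63 and 8.10 against 8.14, 7.91 and 8.07. Both overlapped, with changes of -0.22 (95% interval -0.56 to 0.11) and -0.22 (95% interval -0.48 to 0.04). In both regions pool 3 stood apart from the other Cpd-60 pools, lower in the NAc and higher in the HIP. Within the first BeadChip of the PFC the change was -0.28 and within the second -0.06. With the BeadChip as a block, Sin3a in the NAc also passed the unadjusted threshold (unadjusted p = 0.0224, adjusted p = 0.562 by limma). With the pool number as a block, Sin3a passed it in the NAc and HIP (unadjusted p = 0.0372 and 0.0258, adjusted p = 0.79 and 0.716 by limma). That number marks different mice in each treatment. The dimmer Sin3a probe had a detection p-value of at most 0.01 on 6 of 36 arrays, and the mean of both probes changed by -0.08 in the PFC (unadjusted p = 0.283 by limma).

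The 3 regions of a pool came from the same mice, so each pool was also averaged over its regions. Under Cpd-60 1 of 8 genes was higher and 1 lower at the unadjusted threshold, where 9.12% of all probes passed (3.85% higher and 5.28% lower), and none passed adjustment by limma. The brightest Rbbp4 probe averaged 7.02, 7.00 and 7.10 under vehicle and 7.13, 7.33 and 7.22 under Cpd-60, without overlap. The change was 0.19 (SE 0.05, unadjusted p = 0.00307, adjusted p = 0.277 by limma). For the second probe it was 0.29 (unadjusted p = 0.000688, adjusted p = 0.221 by limma) and for the third 0.08 (95% interval -0.05 to 0.21). Sin3a averaged 8.36, 8.28 and 8.17 under vehicle and 8.06, 8.03 and 8.07 under Cpd-60, also without overlap, a change of -0.22 (SE 0.07, unadjusted p = 0.00653, adjusted p = 0.326 by limma). Groups did not overlap for 2 of the 8 genes under Cpd-60, against 12.9% of all probes. Leaving out any 1 pool kept both genes past the unadjusted threshold, with changes of 0.14 to 0.24 for Rbbp4 and -0.27 to -0.17 for Sin3a.

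Under SAHA and CI-994 none of the 8 representative probes passed at the unadjusted threshold on these averages, where 2.57% and 4.05% of all probes passed. Rbbp4 averaged 7.03, 7.07 and 7.07 under SAHA and 7.11, 7.16 and 7.10 under CI-994. All 3 CI-994 pools lay above every vehicle pool, by a margin lost on rounding for pool 3. Rbbp4 was the only gene of 8 without overlap under CI-994, against 10.5% of all probes. The change of Rbbp4 was 0.02 (95% interval -0.09 to 0.13) under SAHA and 0.08 (95% interval -0.03 to 0.20) under CI-994. The second Rbbp4 probe was 0.14 higher under SAHA (unadjusted p = 0.0476, adjusted p = 1 by limma), a call lost in 6 of 12 fits that left out 1 pool. For Sin3a the difference from vehicle was -0.05 under SAHA and -0.01 under CI-994.

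**Figure D4:**
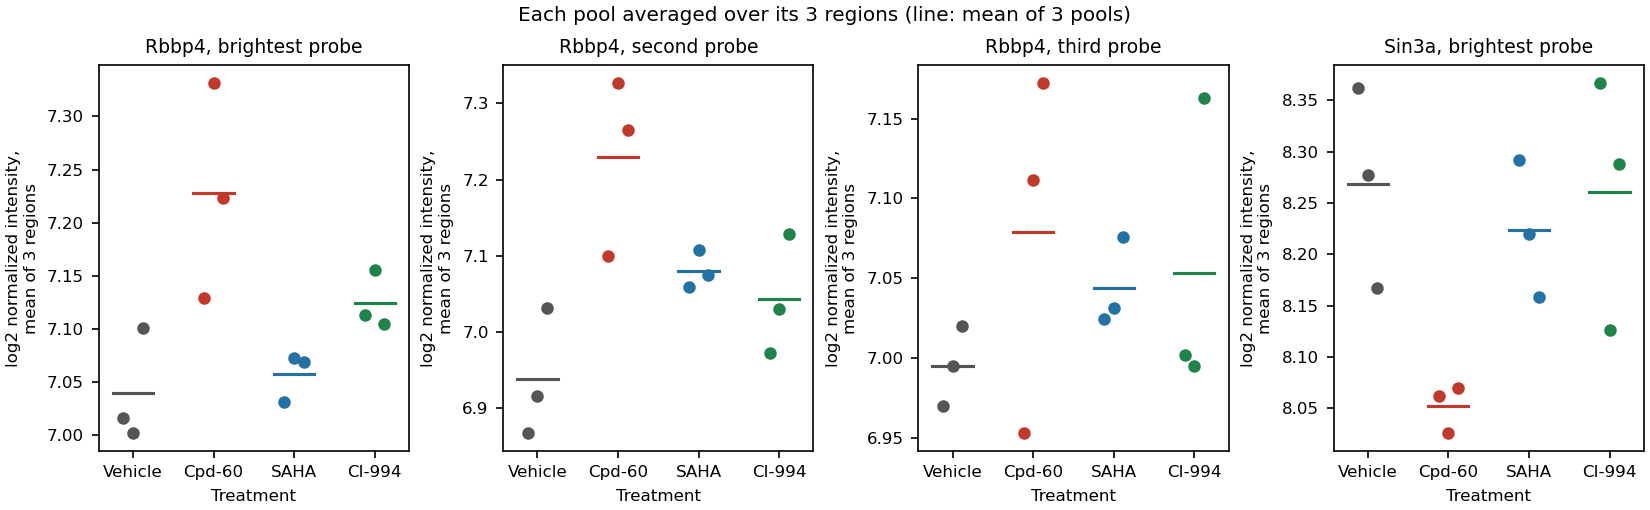
log2 normalized intensity averaged over PFC, NAc and HIP (y axis) in each of 3 pools per treatment (x axis) for 3 Rbbp4 probes and for Sin3a; lines are means. The Cpd-60 pools lie above the vehicle pools for the brightest and second Rbbp4 probes, overlap them for the third, and lie below them for Sin3a.

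The remaining scaffolds gave no call. Changes of Mta2 lay between -0.11 and 0.10 and those of Rcor1 between -0.17 and 0.12 over the 9 comparisons. Ncor1 in the HIP read 8.76, 8.92 and 8.85 under Cpd-60, 8.40, 8.72 and 8.88 under SAHA and 8.39, 9.52 and 8.81 under CI-994. Its largest change, 0.31 under CI-994 in the HIP, had a 95% interval from -0.21 to 0.82. The effect of an inhibitor was also compared between regions within pools, and no gene differed at the smallest of 3 unadjusted p-values times 3 under 0.05 by limma (lowest unadjusted p = 0.0696).

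From pool to pool within a treatment, Hdac2 and Ncor1 deviated in opposite directions in the NAc. The deviation of each array from the mean of its group was compared between the 28 pairs of genes in each region, 84 relations in all, and r of 8 passed an adjusted permutation p of 0.05. The share of all probe pairs on the array that were so related was not computed, so the count is a description. Arrays were shuffled without regard to treatment or BeadChip, although deviations were centred within each treatment and BeadChips differed. In the NAc the second minus the first BeadChip within a treatment was 0.90 for Hdac2 and -0.44 for Ncor1. Permutation p-values for these relations may therefore be too small, and they include any shift between BeadChips. Hdac2 and Ncor1 in the NAc were related at r = -0.95 and rho = -0.94 over 12 arrays (permutation p = 1e-05 for r, the smallest that 100000 resamples can give, and 3e-05 for rho, adjusted p = 0.00084 and 0.00168). Without the 2 arrays farthest from the median of Hdac2, r was -0.91. The arrays of the second BeadChip held the higher Hdac2 and lower Ncor1 values, and r was -0.91 after treatment and BeadChip means were removed, -0.80 between the levels of the 6 arrays of the first BeadChip and -0.95 between those of the second. In the same arrays the deviation of the mean oligodendrocyte marker level was related to that of Hdac2 at r = 0.68 and to that of Ncor1 at r = -0.67, and its part was not tested. In the PFC the percent of probes detected was related to Hdac2 at r = -0.58 and to Ncor1 at r = 0.63, and the oligodendrocyte markers to Hdac2 at r = 0.64 and to Ncor1 at r = -0.17, and their part was not tested. In the PFC and HIP the relation of Hdac2 to Ncor1 was r = -0.60 (rho = -0.49, permutation p = 0.0377 and 0.111, adjusted p = 0.151 and 0.358) and r = -0.52 (rho = -0.44, permutation p = 0.0782 and 0.152, adjusted p = 0.235 and 0.44), and with treatment and BeadChip means removed r was -0.84 and -0.82. Without the 2 farthest arrays it was -0.27 and -0.18.

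Hdac2 and Hdac3 had a positive r in every region, with an adjusted permutation p under 0.05 in the PFC and HIP. These permutation p-values may also be too small, and the share of all probe pairs so related was not computed. Over 12 arrays r was 0.90 in the PFC (rho = 0.82, permutation p = 0.00015 and 0.00184, adjusted p = 0.0063 and 0.0386), 0.77 in the HIP (rho = 0.68, permutation p = 0.00426 and 0.0185, adjusted p = 0.0447 and 0.141) and 0.73 in the NAc (rho = 0.64, permutation p = 0.0069 and 0.0307, adjusted p = 0.0644 and 0.198). With treatment and BeadChip means removed, r was 0.97, 0.78 and 0.79 in the same order. Without the 2 arrays farthest from the median of Hdac2 it was 0.68 (PFC), 0.52 (HIP) and 0.38 (NAc), so that these relations rest in part on those arrays. The other relations whose r passed were Hdac3 with Ncor1 (r = -0.84, rho = -0.78, adjusted permutation p = 0.0181 and 0.0564), Hdac8 with Rbbp4 (r = -0.83, rho = -0.93, adjusted permutation p = 0.0168 and 0.00168) and Hdac8 with Sin3a (r = 0.79, rho = 0.71, adjusted permutation p = 0.0344 and 0.141) in the NAc. In the HIP they were Hdac2 with Sin3a (r = 0.77, rho = 0.68, adjusted permutation p = 0.0389 and 0.141) and Rbbp4 with Sin3a (r = -0.80, rho = -0.70, adjusted permutation p = 0.0344 and 0.141). Without the 2 arrays farthest from the median of the first gene, r was -0.62, -0.74, 0.69, 0.65 and -0.57 in this order, and with treatment and BeadChip means removed it was -0.84, -0.64, 0.47, 0.82 and -0.76. Between the levels on each BeadChip of the NAc, Hdac8 and Rbbp4 were related at -0.68 on the first and 0.25 on the second, and Hdac8 and Sin3a at -0.20 and 0.53, so neither kept its sign on both. By rho alone, Hdac8 with Sin3a in the HIP also passed (r = 0.70, rho = 0.83, adjusted permutation p = 0.075 and 0.0386).

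**Figure D5:**
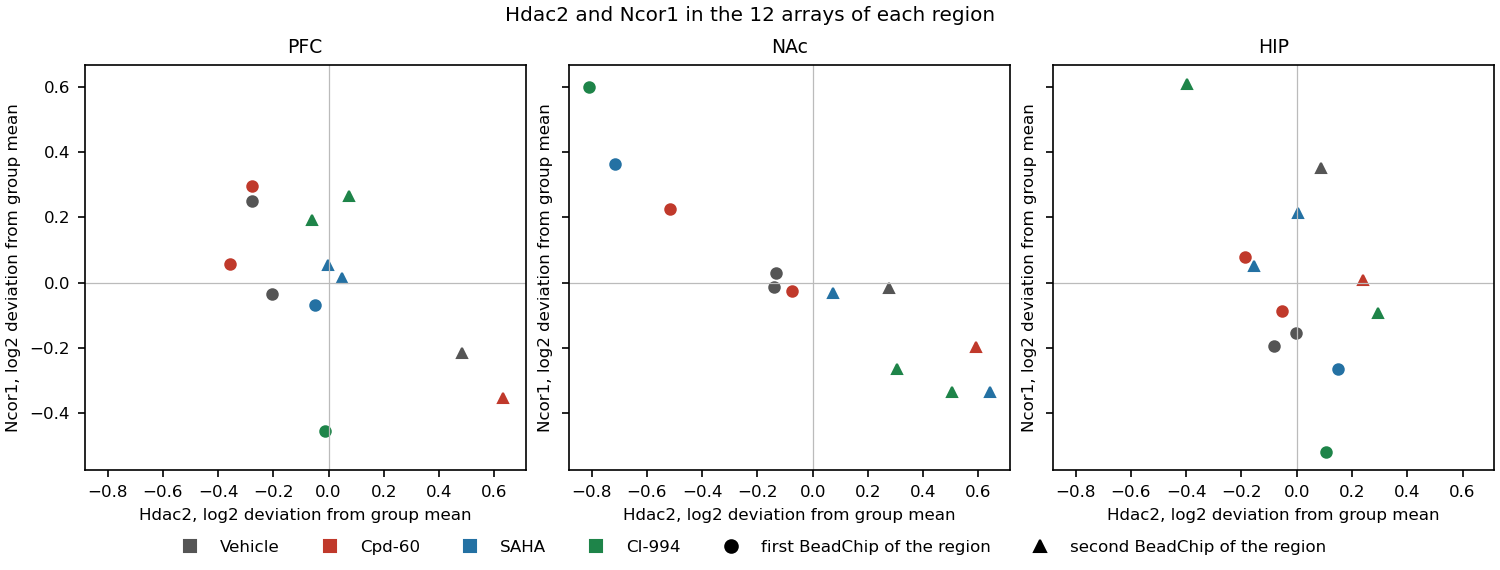
Deviation of Ncor1 (y axis) against that of Hdac2 (x axis) from the group mean, in log2 units, for the 12 arrays of PFC, NAc and HIP; colours are treatments and shapes the 2 BeadChips of a region. In the NAc the points fall along a line from upper left to lower right (r = -0.95).

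Over the 12 group means of 4 treatments in 3 regions, the probes most like Hdac2 among 19447 were those of Glg1 (r = 0.995), the calcium sensor of vesicle release Doc2b (r = 0.993) and the O-GlcNAc transferase Ogt (r = 0.992). Under vehicle Ogt followed the same order of regions, from 7.95 (PFC) through 8.67 (NAc) to 8.87 (HIP). Those most like Hdac3 were the splicing regulator Mbnl2 (r = 0.994), Tmem47 (r = 0.987) and 4921505C17Rik (r = 0.985), and those most like Hdac8 were Slc35b2 (r = 0.922), the coatomer subunit Cope (r = 0.918) and Ppp2r5c, a regulatory subunit of protein phosphatase 2A (r = 0.909). These values describe 12 means that share regions and vehicle arrays and carry no test.

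Other subunits of the class I HDAC complexes were taken from a list of 39 genes, of which 34 had a probe and 32 were tested in each region. Under the inhibitors none of them passed adjustment by limma in any comparison. At the unadjusted threshold 4 of 32 passed under SAHA in the HIP, 3 under Cpd-60 in the HIP, 2 under CI-994 in the HIP, against 9.37%, 5.26% and 3.24% of all probes, and at most 1 in each comparison of the PFC and NAc, where 1.99% to 5.19% of all probes passed. The largest without overlap under Cpd-60 was Tbl1xr1, a WD-repeat subunit of the NCoR complex, which was 0.34 higher in the PFC (unadjusted p = 0.00122, adjusted p = 0.658 by limma). Arid4b, of the Sin3 complex, was lower in the NAc by 0.29 under Cpd-60 (change -0.29) and by 0.35 under SAHA (change -0.35) (unadjusted p = 0.0109 and 0.00353 by limma), against the same vehicle arrays. In the HIP Tbl1x and Mta3 were higher under Cpd-60 by 0.28 and 0.22. Sap30l and Chd5 were higher under SAHA by 0.57 and 0.53, and Arid4a was lower under CI-994 by 0.29. Groups did not overlap for 12.2%, 19.3% and 9.58% of all probes in the HIP under Cpd-60, SAHA and CI-994. The SAHA values carry the limits of array brightness and BeadChip given for Hdac8, whose part in them was not tested. The CI-994 value of Arid4a carries that of BeadChip, whose part was not tested either. In the HIP Arid4a read 7.83, 7.82 and 7.59 under vehicle and 7.53, 7.31 and 7.54 under CI-994. Vehicle pool 3 and CI-994 pools 2 and 3 were on the second BeadChip.

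Between regions in the vehicle arrays these partners passed adjustment at shares near those of the array. Of 33 tested, 2 were higher and 5 lower in the HIP than in the PFC after adjustment by limma, 3 higher and 6 lower in the NAc than in the PFC, and 1 higher and 6 lower in the HIP than in the NAc. These are 7, 9 and 7 of 33, against 27.3%, 20.8% and 17.9% of all probes. Of 4 NCoR/SMRT partners tested, 2 were lower in the HIP than in the PFC after adjustment, as were 13.9% of all probes. There 1 of 8 NuRD and 1 of 8 CoREST partners were lower, and of 11 Sin3 partners 2 were higher and 1 lower. In the NAc 1 of the 4 NCoR/SMRT partners was higher and 2 were lower than in the PFC, against 9.59% and 11.2% of all probes. In that comparison 2 of 8 NuRD partners were lower, 1 of 8 CoREST partners was higher, and of 11 Sin3 partners 1 was higher and 2 lower. The genes named below are only part of those that passed. Chd5, the neuronal NuRD ATPase, was lower by 1.06 in the HIP and by 0.73 in the NAc than in the PFC (adjusted p = 0.00281 and 0.0203 by limma). Ing2, of the Sin3 complex, was lower by 0.63 and 0.76 (adjusted p = 0.000667 and 0.000166 by limma). Tbl1x of the NCoR complex was highest in the NAc, 0.90 above the HIP (adjusted p = 6.15e-05 by limma), as was the CoREST partner Zmym3, 0.89 above the HIP (adjusted p = 0.000413 by limma). Sin3b, the paralog of Sin3a, was higher by 0.30 in the HIP and 0.27 in the NAc than in the PFC (adjusted p = 0.0218 and 0.0401 by limma), and Sap30, of the same complex, was higher by 0.57 in the HIP than in the NAc (adjusted p = 0.000465 by limma).

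Each limma p-value for an inhibitor measures the spread between pools of 2 mice, BeadChip differences included, and the number of arrays limits the precision. The fits of vehicle regions took 9 arrays as independent, although the same 3 pools gave all regions. Permutation p-values came from shuffling arrays without regard to treatment or BeadChip, and may be too small. An exact permutation test of 3 arrays against 3 could not give a two-sided p below 0.1, so that calls for single genes rest on the spread that limma shares over all probes.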

How the data were processed

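Total RNA of the 36 pools was measured on Illumina mouse BeadChips. The authors deposited non-normalized bead summary intensity values per probe, and beside each the deposited detection p-value of that array, the chance of such a signal among negative control probes. Deposited gene symbols named the probes. Intensities of all 36 arrays were quantile-normalized together, set to at least 1 and log2-transformed. Each region was fitted with limma 3.58.1 in R 4.3.3 over its 12 arrays, with p-values adjusted by Benjamini-Hochberg over all probes tested. The vehicle regions were fitted over 9 arrays, and pool means over the 12 pools. Cpd-60 pool 2 carries 2 conflicting pool labels in its notes, and its title was followed. The brightest probe tested in all 3 regions stood for a gene, and every member was described. Of the partners past adjustment between regions only some were named. Under the inhibitors at most 2 per comparison were named, as the largest without overlap. The fits were tested on simulated data with a change of 1 log2 unit in 200 probes and no BeadChip effect. Changes under an inhibitor were smaller here, so that test does not speak to them. Alternatives covered normalization, detection limit, block terms, probe averaging, the methods' test and leaving out each pool. The members and lists were chosen with earlier results of these data known. Pools of the same number came from the same mice across regions, where deviations of 2 regions correlated at -0.48 to 0.59 and 11 of 36 were over 0.1. Between treatments the same number marked different mice. Deviations of inhibitor and vehicle arrays of the same number correlated at -0.45 to 0.73 (median 0.18) and 15 of 27 were over 0.1, among them all 3 pairs of Cpd-60 with vehicle in the PFC (0.18 to 0.59) and in the NAc (0.35 to 0.73), which also shared a BeadChip. Hdac1 was not analysed here.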

Additional observations from a re-analysis of the deposited data

How the results depend on the processing

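Of 3 pairs of a gene and a region that passed the unadjusted threshold under Cpd-60, 1 passed after median centring, 1 by the methods' test and 1 with the mean of all probes of a gene, and leaving out 1 pool gave 1 to 5. With the replicate number as a block 5 passed, with Sin3a in the NAc and HIP added. That number marks different mice in each treatment. Sin3a in the NAc also passed with the BeadChip as a block. The 1 pair under SAHA became 4 after median centring and 0 at a detection p-value of at most 0.01, with the BeadChip as a block, over 27 arrays without CI-994, by the methods' test and with the mean of probes, and 0 to 1 when a pool was left out. Under CI-994 leaving out a pool gave 0 to 1. After adjustment 0 pairs passed in any fit without 1 pool, and 1 (Mta2 under SAHA in the HIP) after median centring, which moved the median of all probes there by -0.19. Median centring turned Hdac8 to -0.063 and the second Rbbp4 probe to -0.095 in that comparison. On averages over regions 2 genes passed, and 2 to 3 without a pool. An effect that differed between regions was called for 0 genes, for 2 after median centring and for 0 to 1 without a pool.

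Between vehicle regions, median centring left 1 gene called in the HIP against the PFC (Hdac2, with Ncor1 lost) and 0 in the NAc against the PFC (Hdac2 lost). In the HIP against the NAc 1 was called at the stricter detection limit (Sin3a), 1 with the mean of probes (Rbbp4) and 1 with 36 arrays and the pool as a random block (Sin3a). Leaving out a vehicle pool gave 1 to 4, 0 to 3 and 0 to 4 genes in the HIP against PFC, NAc against PFC and HIP against NAc, the highest without pool 3. The pool as a block, pairing regions of the same mice, kept the counts at 2, 1 and 0 and lost only the third Rbbp4 probe among the vehicle calls. The BeadChip as a random block, chosen after seeing the data, gave the same counts. The cause of these shifts was not tested.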
